A study of Mus musculus with 4 samples.

Results

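Transcripts of 10 genes that muscle switches on in fasting, glucocorticoid excess and wasting were examined in isolated mitochondria and in the remaining tissue of mouse skeletal muscle. The genes were chosen by name (Fbxo32, Trim63, Pdk4, Txnip, Angptl4, Ucp3, Klf15, Foxo1, Mt1 and Mt2), and all 10 were found among the 16472 genes measured. RNA sequencing covered 4 libraries from wild-type mice, 2 of isolated mitochondria (SM-mito) and 2 of the tissue they were set against (SM-total). The labels give no age, sex, feeding state or treatment with a drug or hormone for either group. Whether any library came from a fasted or atrophic animal is therefore not known. Both groups share the genotype, the tissue and the preparation of libraries from a small amount of total RNA, but the fragmentation time was set separately for mitochondrial samples and cannot be told apart from the fraction. Whether the 2 libraries of a group came from separate animals is not stated, so p-values measure only the spread between these libraries. By its treatment label SM-total is tissue minus mitochondria, whereas its titles and a figure legend of the study name total muscle. It is called remaining tissue here, after the label, and whether mitochondria had been taken from it is not settled.

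The genes belong to a common programme. When insulin falls or glucocorticoids rise, the transcription factor FoxO1 enters the nucleus and, together with the glucocorticoid receptor and its target Klf15, raises genes for protein breakdown and for the switch from glucose to fat. Fbxo32 (atrogin-1) and Trim63 (MuRF1) are muscle ubiquitin ligases that mark proteins for the proteasome. Pdk4 inhibits pyruvate dehydrogenase inside mitochondria, Ucp3 is a carrier of the inner mitochondrial membrane, and Angptl4 is a secreted inhibitor of lipoprotein lipase. Txnip binds thioredoxin and limits glucose uptake. Mt1 and Mt2 are metallothioneins that bind zinc and copper and respond to metals and glucocorticoids. All 10 are encoded in the nucleus.

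The promoter stretches below are shown because they carry the elements by which these genes are known to be grouped. RefSeq (GRCm38.p6) gave a promoter for 8 of the 10 genes, and the 250 bases before the start were searched on both strands. Fbxo32 and Angptl4 had no entry, so their promoters were not searched. GTAAACA, a FoxO element, was found in 2 of the 8, Trim63 and Txnip, and in 3.17% of all 32851 promoters. A glucocorticoid response element, read as ACA and TGT 3 bases apart with a flanking G and C, was found in 3 of the 8, Trim63, Txnip and Mt1, and in 0.387% of all promoters. TGCACNC, a form of the metal response element, stood in 2 of the 8, Mt1 and Mt2, and in 10.4% of all promoters. TGCGCNC, another form, stood in 3 of the 8, Txnip, Klf15 and Mt2, and in 12.5% of all promoters. Each stretch is given 5′ to 3′ with the matches in capitals; in Trim63 (chr4:134314890-134314949, plus strand) 1 base separates the glucocorticoid element from the FoxO element, in Txnip (chr3:96557807-96557866, plus strand) the match is the FoxO element, and in Mt1 (chr8:94179029-94179088, plus strand) and Mt2 (chr8:94172558-94172617, plus strand) the matches are metal response elements.
Trim63: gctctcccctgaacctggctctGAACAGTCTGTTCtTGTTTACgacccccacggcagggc
Txnip: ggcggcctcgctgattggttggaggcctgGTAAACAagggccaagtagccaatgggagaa
Mt1: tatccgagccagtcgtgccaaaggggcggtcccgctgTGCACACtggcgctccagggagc
Mt2: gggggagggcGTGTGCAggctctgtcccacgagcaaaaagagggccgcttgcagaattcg
A match is a description of the letters and not a site at which binding was measured.

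Values are normalized counts, which are gene counts divided by a size factor of the library. In isolated mitochondria 1 read is worth 9.05 normalized counts in replicate 1 and 5.06 in replicate 2, because 95.3% and 94.1% of the reads fell on mitochondrially encoded genes. Only 100924 and 181152 reads remained there for nuclear genes outside copies of mitochondrial DNA, against an estimated 11988495 and 11967537 in remaining tissue, where 1 normalized count stands for 7.05 reads. The 10 genes together held 86 and 293 reads in isolated mitochondria replicates 1 and 2, and an estimated 19765 and 20428 in remaining tissue. As a share of nuclear reads this was 1649 and 1707 ppm in remaining tissue, and 852 and 1617 ppm in isolated mitochondria, so that replicate 2 came close to tissue and replicate 1 did not. Of all assigned reads they made up 1259 and 1335 ppm in remaining tissue and 2.01 and 8.30 ppm in isolated mitochondria. Fewer cells of a type and less RNA per cell cannot be told apart in such bulk fractions.

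**Figure D1:**
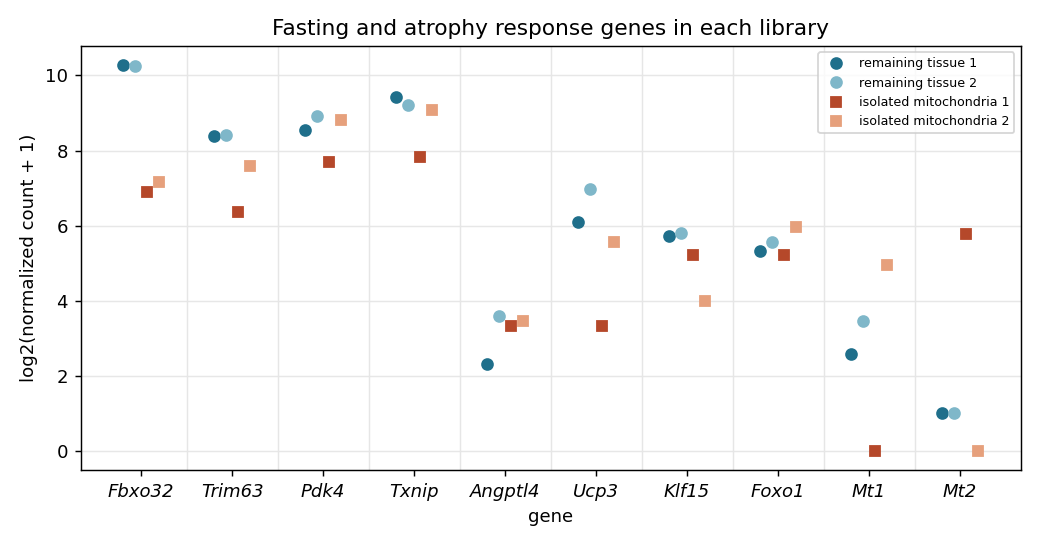
Level of each of the 10 genes in each library, as log2 of the normalized count plus 1 (circles, remaining tissue; squares, isolated mitochondria). Fbxo32 is the highest of the 10 in both libraries of remaining tissue and lies below Txnip, Pdk4 and, in replicate 2, Trim63 in isolated mitochondria; Mt1 and Mt2 are each at 0 in 1 library of isolated mitochondria.

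To find out which of these transcripts follow mitochondria, the fractions were compared. Fbxo32 was the only one of the 10 whose change passed the test, and it was lower in isolated mitochondria. Of the 10 genes 7 reached the minimum of 20 normalized counts on average and were tested. Of these, 1 was called lower and 0 higher at an adjusted p under 0.05 (limma on log2 of the normalized count plus 1), against 9.3% called lower and 7.32% called higher of all 6916 genes. A count of 1 among 7 is close to that background. At an unadjusted p under 0.05 there were 2, Fbxo32 and Trim63, against 37.0% of all genes in either direction. With edgeR 1 was lower and 0 were higher, against 17.6% and 13.6% of all genes, and with DESeq2 2 were lower and 0 higher, against 19.2% and 16.9%. Without isolated mitochondria replicate 1 the number called lower was 3, against 40.1% of all genes, and without replicate 2 it was 4, against 46.2%. Called higher were 0, against 24.9% and 23.8% of all genes. In these fits the lone library of isolated mitochondria is assumed to vary like the libraries of remaining tissue, which lay close together, and the counts of 3 and 4 among 7 are near their background. In normalized counts the groups did not overlap for 5 of the 7 tested genes, against 69.1% of all genes. This depended on the scaling. As a share of nuclear reads the groups overlapped for Trim63, Txnip, Ucp3 and Klf15. On that scale Fbxo32 stayed apart, and Foxo1 was higher in isolated mitochondria in every pairing of libraries. The share of all genes without overlap on that scale was not computed. All genes together had a median log2 fold change of -0.44, and 6 of the 7 lay below it.

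Among the ubiquitin ligases, Fbxo32 (ENSMUSG00000022358, chromosome 15, 58175879 to 58214932, minus strand of GRCm38) stood at 1237 and 1227 normalized counts in remaining tissue replicates 1 and 2 and at 118 and 142 in isolated mitochondria. The libraries of a group lay close together and far from those of the other group. The last values rest on 13 and 28 reads. Fbxo32 fell by 3.24 on the log2 scale (SE 0.19, adjusted p 0.00644 by limma), or 9.48-fold in means of 1232 ± 7.07 and 130 ± 17.0 (SD, n = 2 each). Its change ranked 189 from the lowest of 6862 nuclear genes. The call held in 15 of 15 alternatives, with values from -10.0 to -2.35 and adjusted p from 9.58e-36 to 0.0305. Fbxo32 overlaps exons of the antisense gene Gm15943, for which remaining tissue had 3 and 2 normalized counts and both libraries of isolated mitochondria had 0.

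Trim63 (ENSMUSG00000028834, chromosome 4, 134315120 to 134329629, plus strand) had 333 and 341 normalized counts in remaining tissue and 81 and 192 in isolated mitochondria, from 9 and 38 reads. In normalized counts remaining tissue was higher in every pairing of libraries, yet replicate 2 of isolated mitochondria stood 2.37 times above replicate 1 (95% exact binomial interval of the reads 1.12 to 5.55, counting error only). As a share of nuclear reads the groups overlapped, at 196 and 201 ppm in remaining tissue and 89.2 and 210 ppm in isolated mitochondria. Relative to nuclear reads alone Trim63 was at -0.54 (adjusted p 0.470, limma). At -1.43 on the log2 scale (SE 0.47) it did not pass the threshold, with an adjusted p of 0.111 (limma). The adjusted p was 0.0540 with edgeR and 0.0296 with DESeq2, and without isolated mitochondria replicate 1 or 2 it was 0.0162 or 0.0107 (limma, log2 fold change -0.81 or -2.04). The latter values take their spread from remaining tissue alone, with an SE of 0.041 or 0.040, and carry no measure of the spread between mitochondrial preparations.

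Pdk4 (ENSMUSG00000019577, chromosome 6, 5483351 to 5496309, minus strand) was at 374 and 487 normalized counts in remaining tissue and at 208 and 450 in isolated mitochondria, from 23 and 89 reads. The groups overlapped, since replicate 2 of isolated mitochondria exceeded replicate 1 of remaining tissue. Its log2 fold change, -0.48 with an SE of 0.44, was close to the median of all genes (adjusted p 0.465 by limma). Pdk4 and Angptl4 hold stretches that are at least 95% identical to parts of 107 and 141 other genes. The methods of the study left out reads that aligned to several regions or overlapped several genes. Reads from these stretches may therefore be missing. The sign of Pdk4 turned without isolated mitochondria replicate 1 (0.08). Ucp3 (ENSMUSG00000032942, chromosome 7, 100472990 to 100486432, plus strand), the other gene with a mitochondrial protein, had 67 and 125 normalized counts in remaining tissue and 9 and 46 in isolated mitochondria. The latter were 1 and 9 reads, and the groups overlapped as a share of nuclear reads but not in normalized counts. The change of Ucp3, -2.09 on the log2 scale with an SE of 0.88, did not pass the threshold (adjusted p 0.169 by limma). Without isolated mitochondria replicate 1 it was -0.98 and without replicate 2 it was -3.21. Neither gene for a mitochondrial protein was thus called higher in isolated mitochondria.

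Txnip (ENSMUSG00000038393, chromosome 3, 96557957 to 96561883, plus strand) had 692 and 595 normalized counts in remaining tissue and 226 and 536 in isolated mitochondria, from 25 and 106 reads. Replicate 2 of isolated mitochondria came near the lower library of remaining tissue. Its fold change on the log2 scale, -0.88 with an SE of 0.47, did not pass (adjusted p 0.247 by limma), and without isolated mitochondria replicate 2 it was -1.5 with an adjusted p of 0.0270, the spread again being that of remaining tissue alone. The sign of Txnip and Pdk4 depended on the scaling, since relative to nuclear reads alone they stood at 0.013 and 0.41, where the median of all genes was 0.43 and Fbxo32 was still lower at -2.35. Txnip shares exon sequence with the antisense gene Gm15441, which had 13 and 9 normalized counts in remaining tissue and 9 and 15 in isolated mitochondria.

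The transcription factors were less abundant. Klf15 (chromosome 6, 90462576 to 90475238, plus strand) had 52 and 55 normalized counts in remaining tissue and 36 and 15 in isolated mitochondria, which were 4 and 3 reads. It did not pass the threshold (-1.16 on the log2 scale with an SE of 0.51, adjusted p 0.184 by limma). Without isolated mitochondria replicate 1 or 2 the adjusted p was 0.0140 (-1.77) or 0.0308 (-0.56) by limma, but the SE of 0.061 or 0.062 then came from remaining tissue alone and the fold from 3 or 4 reads. Foxo1 (chromosome 3, 52268336 to 52353221, plus strand) was at 39 and 46 normalized counts in remaining tissue and at 36 and 61 in isolated mitochondria, from 4 and 12 reads. The groups overlapped in normalized counts, and Foxo1 had the only positive log2 fold change of the 7, 0.14 with an SE of 0.38 (adjusted p 0.800 by limma). It turned to -0.23 without isolated mitochondria replicate 2. Foxo1 overlaps exons of the antisense gene Gm20402.

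Angptl4, Mt1 and Mt2 were below the minimum mean and were not tested. Angptl4 (chromosome 17, 33773750 to 33781830) had 4 and 11 normalized counts in remaining tissue and 9 and 10 in isolated mitochondria, the latter 1 and 2 reads. Mt1 (chromosome 8, 94179082 to 94180327) had 5 and 10 in remaining tissue and 0 and 30 in isolated mitochondria, or 0 and 6 reads. Mt2 (chromosome 8, 94172664 to 94173568) had 1 and 1 in remaining tissue and 54 and 0 in isolated mitochondria, or 6 and 0 reads. A floor of 3 reads corresponds to 27.1 and 15.2 normalized counts in isolated mitochondria replicates 1 and 2, which is above every level of these genes in remaining tissue, so that a fall was not detectable at this depth. The metallothioneins were each seen in 1 of 2 libraries of isolated mitochondria, and not in the same one. Mt2 overlaps exons of the antisense gene Gm45774, with 2 and 5 reads in isolated mitochondria. Mt1 shared no stretch of at least 50 nt at 90% identity with another transcript.

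**Figure D2:**
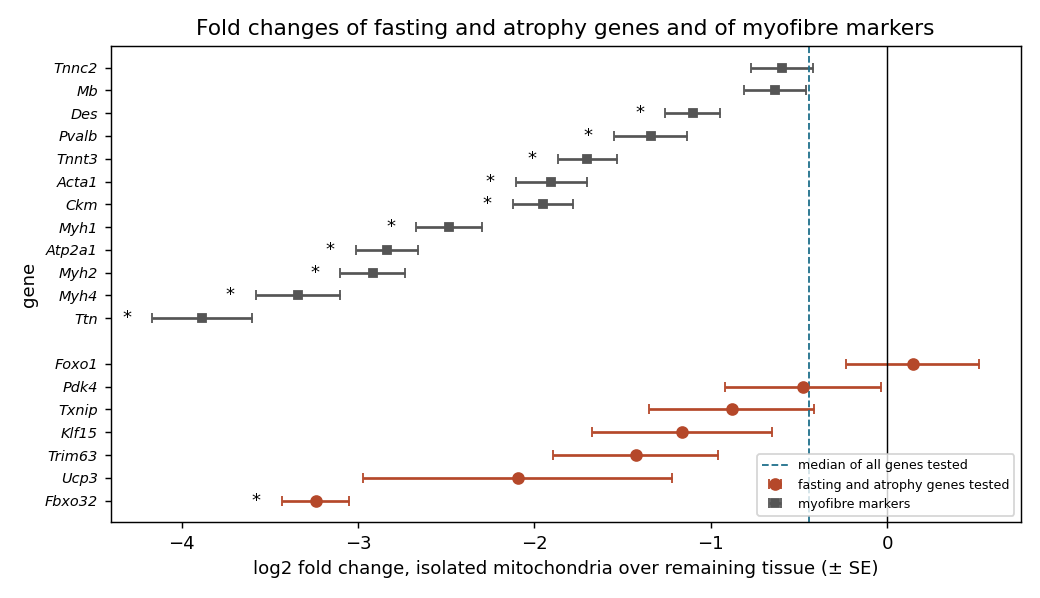
Log2 fold change of isolated mitochondria over remaining tissue with its standard error for the 7 fasting and atrophy genes tested (circles) and for 12 myofibre markers (squares); stars mark an adjusted p under 0.05 (limma) and the dashed line the median of all genes tested, -0.44. Fbxo32 at -3.24 lies beside Myh4 at -3.34, whereas Foxo1 at 0.14 and Pdk4 at -0.48 lie near or above the dashed line.

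The order of the genes within a library does not depend on how libraries are scaled to each other, and it was examined next. Of the reads on the 10 genes, Fbxo32 took 44.1% in remaining tissue replicate 1 (95% exact binomial interval 43.4 to 44.8, counting error only) and 42.3% in replicate 2 (41.7 to 43.0). Its share of isolated mitochondria replicate 1 was 15.1% (8.30 to 24.5) and of replicate 2 was 9.56% (6.44 to 13.5). Pdk4 took 13.3% and 16.8% in remaining tissue and 26.7% (17.8 to 37.4) and 30.4% (25.2 to 36.0) in isolated mitochondria. Txnip took 24.7% and 20.5% against 29.1% (19.8 to 39.9) and 36.2% (30.7 to 42.0). Trim63 took a share of 11.9% and 11.8% in remaining tissue and of 10.5% (4.90 to 18.9) and 13% (9.34 to 17.4) in isolated mitochondria. Fbxo32 thus had the most reads in both libraries of remaining tissue and Txnip in both of isolated mitochondria, and the intervals of Fbxo32 did not overlap between the groups.

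**Figure D3:**
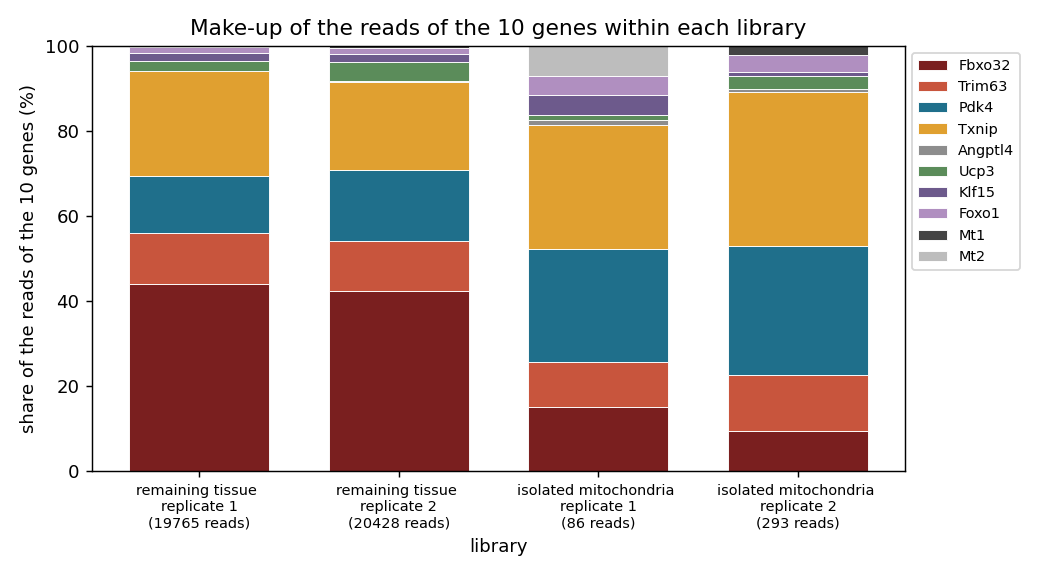
Share of the reads of the 10 genes that each gene took within each library, in percent, with the number of reads in parentheses. The Fbxo32 segment shrinks from 44.1% and 42.3% in remaining tissue to 15.1% and 9.56% in isolated mitochondria, while the Pdk4 segment is larger in isolated mitochondria and the Trim63 segment stays between 10.5% and 13%.

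Ratios of reads between genes showed the same. Fbxo32 had 3.31 and 2.52 reads for each read of Pdk4 in remaining tissue, but 0.565 (0.263 to 1.16) and 0.315 (0.198 to 0.486) in isolated mitochondria, a difference of -2.78 in the mean log2 ratio. For Fbxo32 over Txnip the ratios were 1.79 and 2.06 against 0.520 and 0.264, and for Fbxo32 over Trim63 3.72 and 3.60 against 1.44 and 0.737. Pdk4 over Txnip was 0.540 and 0.819 in remaining tissue and 0.920 (0.499 to 1.69) and 0.840 (0.626 to 1.12) in isolated mitochondria, where the counting intervals include the value of tissue replicate 2. Trim63 was lower against both of these genes in isolated mitochondria, with a mean log2 ratio that differed by -0.95 for Pdk4 and by -0.55 for Txnip. Over Txnip it was 0.360 (0.148 to 0.797) and 0.358 (0.241 to 0.524), and both counting intervals include the 0.481 of tissue replicate 1. Over Pdk4 it was 0.391 (0.159 to 0.878) and 0.427 (0.284 to 0.631), against 0.890 and 0.700 in remaining tissue. Only the first of these intervals includes 0.700. The even share of Trim63 went with the smaller share of Fbxo32. No p is given for shares and ratios, as they were not fitted across genes and a two-sided exact permutation test of 2 libraries against 2 cannot go below 0.333.

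Levels were also compared between genes per length, as normalized counts per kb of annotated exons. In remaining tissue Txnip was highest at 206 ± 22.0 per kb, followed by Fbxo32 at 177 ± 1.01, Pdk4 at 123 ± 22.8 and Trim63 at 119 ± 1.99 (SD, n = 2 each). On these lengths Pdk4 and Trim63 did not differ beyond their spread. For Trim63 the annotated exons held 2842 nt and the longest transcript 1886 nt. The place of Trim63 in this order therefore depends on the length used. Ucp3 at 30.6 ± 13.1 and Klf15 at 19.2 ± 0.760 came next, with a difference below the SD of Ucp3, and Mt1, Foxo1, Angptl4 and Mt2 lay between 6.02 and 1.70 per kb. In isolated mitochondria Txnip (122 ± 70.2) and Pdk4 (93.7 ± 48.7) had the highest means, with ranges that overlapped, while Mt2 (45.9 ± 64.9) was highest in replicate 1 at 91.8 per kb, from 6 reads, and at 0 in replicate 2. Trim63 (48.0 ± 27.6) stood above Fbxo32 (18.6 ± 2.43) in both libraries.

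The fall of Fbxo32 was set beside that of other abundant transcripts. Muscle fibre markers identified the tissue, with summed levels of 577058 and 557173 normalized counts in remaining tissue and 80336 and 70908 in isolated mitochondria, and none of the 12 was at 0 in any library. Of these 12, 10 were lower and 0 higher (limma), with a median log2 fold change of -1.93 and a range of -3.88 to -0.60. Fbxo32 lay between the myosin genes Myh4 (-3.34) and Myh2 (-2.92). Among all 301 nuclear genes with a mean of at least 500 in remaining tissue, 56.1% were called lower and the median was -1.51. Across the 6862 nuclear genes tested, the fold change correlated with the level in remaining tissue (Spearman -0.55) and less with exon length (-0.17). These coefficients are a description, because both axes share the libraries of remaining tissue and the minimum mean admits genes of low tissue level only where they are high in isolated mitochondria. Txnip, the only other of the 10 above that level, had -0.88.

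**Figure D4:**
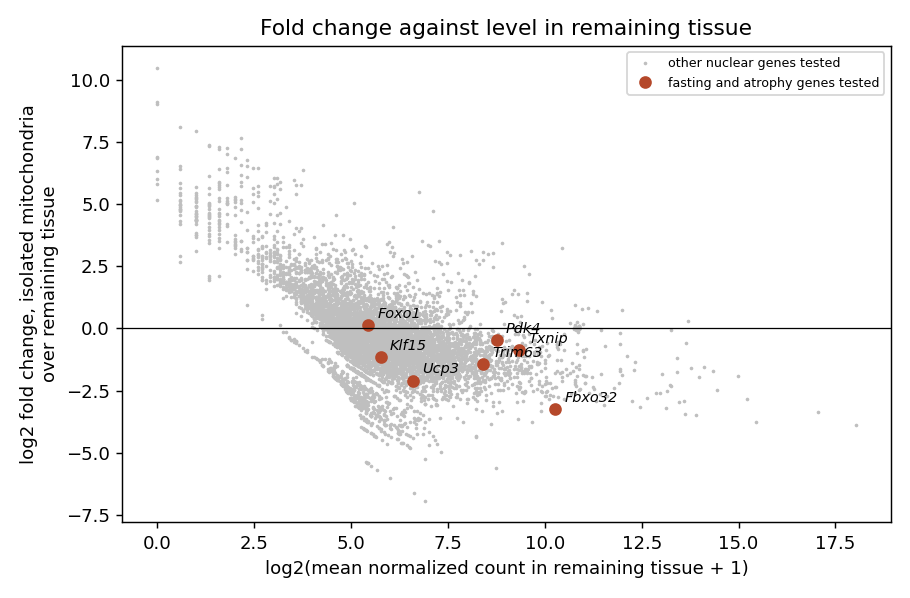
Log2 fold change of isolated mitochondria over remaining tissue against the level in remaining tissue, as log2 of the mean normalized count plus 1, for all 6862 nuclear genes tested (grey) and for the 7 fasting and atrophy genes tested (red). Fbxo32 at -3.24 lies below and Txnip at -0.88 above the median of -1.51 of genes with at least 500 normalized counts in remaining tissue, and at low levels only genes that are high in isolated mitochondria reach the minimum mean.

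Other genes of the same pathways were then counted from lists drawn up from general knowledge. Of 32 genes of FoxO-dependent protein breakdown and autophagy, 29 were tested, with a median log2 fold change of -0.57 beside -0.44 for all genes. By limma 3 were higher and 2 lower, against 7.32% and 9.3% of all 6916 genes, and these counts are near that background. Besides Fbxo32, the ubiquitin ligase adaptor Fbxo31 was lower, at 209 and 172 normalized counts in remaining tissue and 72 and 76 in isolated mitochondria (-1.35, adjusted p 0.0335), though not relative to nuclear reads alone (-0.46, adjusted p 0.232). Higher were the autophagy gene Gabarapl1 (37 and 37 against 100 and 101, log2 fold change 1.42, adjusted p 0.0334), the F-box gene Fbxo21 (25 and 23 against 63 and 86, 1.58, adjusted p 0.0446) and the lysosomal protease gene Ctsl (83 and 89 against 172 and 172, 0.99, adjusted p 0.0476). The 3 calls of higher genes and that of Fbxo31 were lost without remaining tissue replicate 1 or 2, where the lone library is assumed to vary like the other group. These calls were also lost for eBayes without trend (adjusted p 0.0515 to 0.0880) and at a mean of at least 5 (adjusted p 0.0517 to 0.0675, limma). The FoxO paralogues did not pass the threshold. Foxo3 had 60 and 68 against 154 and 91 (0.88, adjusted p 0.153), and Foxo4 168 and 154 against 63 and 20 (-2.14, adjusted p 0.0868). Foxo4 was lower by edgeR (adjusted p 0.0179) and DESeq2 (adjusted p 0.000612) and passed in 7 of 15 alternatives, with a fold of -2.95 without isolated mitochondria replicate 1 and of -1.34 without replicate 2.

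Of 31 genes of fatty acid use in fasting, 23 were tested, with a median of -0.88. By limma 2 were higher and 2 lower, which is near the 7.32% and 9.3% of all genes. Pdk2, the paralogue of Pdk4 that is always present in muscle, was lower, at 608 and 586 normalized counts in remaining tissue and 163 and 268 in isolated mitochondria (-1.51, adjusted p 0.0452, limma), and lost the call without remaining tissue replicate 1 or 2. Pdk1 had 91 and 82 against 27 and 40 (-1.37, adjusted p 0.0598), and Pdk3 had 3 and 2 against 0 and 5 and was not tested. Hadha, a subunit of the trifunctional protein of fatty acid oxidation, was lower as well (501 and 455 against 226 and 202, -1.16, adjusted p 0.0312), with the call lost without either library of remaining tissue. Relative to nuclear reads alone, Hadha was at -0.26 (adjusted p 0.383) and Pdk2 at -0.62 (adjusted p 0.228), and 0 genes of this list were lower. The calls of Hadha and Pdk2 were also lost when scaled to the upper quartile (adjusted p 0.0643 and 0.0520). The same held for eBayes without trend (adjusted p 0.0746 and 0.0817, limma). Ucp2, the paralogue of Ucp3 and known from macrophages, was higher, at 14 and 20 against 81 and 152 (2.66, adjusted p 0.0331 by limma). Its mean of 17.0 in remaining tissue was below 20, so it reached the minimum only by being high in isolated mitochondria. The call of Ucp2 and the count of 2 higher genes therefore follow in part from the filter. The call was lost in 4 of 15 alternatives, and the sign turned in 1 more. The adjusted p was 0.0517 without a filter, 0.0610 at a mean of at least 5 and 0.0501 for eBayes without trend (limma). The call was also lost without remaining tissue replicate 1, at a log2 fold change of 2.42.

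Markers of other cell types were also compared between the fractions, and the direction differed between cell types. Of all 6916 genes 7.32% were called higher and 9.3% lower (limma), and the counts of markers called were not tested against these shares. Macrophage markers summed to 138 and 167 normalized counts in remaining tissue and to 849 and 1041 in isolated mitochondria, with none of 8 at 0 and 5 of the 6 tested higher, among them Lyz2 (46 and 57 against 217 and 339). Hepatocyte markers summed to 260 and 73 in remaining tissue and 11683 and 2327 in isolated mitochondria, with none of 7 at 0 and 2 of 7 higher, and Alb (albumin) was at 185 and 30 against 6986 and 1629. In both fractions replicate 1 had the larger sum of hepatocyte markers, though Cyp2e1 went the other way in remaining tissue (17 and 29). Of the markers called higher, Adgre1, C1qb and Serpina1a had means in remaining tissue (6.0, 11.5 and 8.0) below the minimum mean. These markers were tested only because they were high in isolated mitochondria. The counts of higher macrophage and hepatocyte markers therefore follow in part from the filter. Csf1r, Lyz2, Mrc1 and Cyp2e1 were above the minimum in remaining tissue (means 28.0, 51.5, 31.0 and 23.0). Adipocyte markers summed to 104 and 365 in remaining tissue and to 370 and 287 in isolated mitochondria, where 4 and 2 of 8 were at 0, Lep and Retn among them in both libraries. A single marker, Pck1, which liver also expresses, made up 271 and 101 of the latter sums and stood at 8 and 39 in remaining tissue. Endothelial markers summed to 495 and 512 against 90 and 156, with 1 of 5 tested lower, and 2 of 5 nuclear-retained RNAs were lower. The part of these cells in the values of Ucp2, Ctsl, Mt1 and Mt2 was not tested. When scaled to all genes, which shifts the median of all genes to -6.90, Ucp2 (-4.01), Ctsl (-5.81), Gabarapl1 (-5.30) and Fbxo21 (-5.06) turned negative and lay above that median.

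Of 23 glucocorticoid-induced genes, 19 were tested, with a median of -0.85. By limma 1 was higher and 3 were lower, beside 7.32% and 9.3% of all genes, and the counts were not tested against these shares. Lower were Lpin1, a phosphatidate phosphatase (602 and 631 against 100 and 152, -2.31, adjusted p 0.0195), the kinase gene Sgk1 (164 and 197 against 45 and 51, -1.89, adjusted p 0.0219) and the zinc finger gene Zbtb16 (233 and 242 against 90 and 71, -1.56, adjusted p 0.0265; limma). Fkbp5, a co-chaperone of the glucocorticoid receptor, was higher (50 and 32 against 136 and 142, 1.77, adjusted p 0.0372), a call that was lost without any 1 of the 4 libraries (adjusted p 0.0824 to 0.362). Sgk1 and Zbtb16 lost theirs without remaining tissue replicate 1 or 2 (adjusted p 0.164 to 0.287) and also relative to nuclear reads alone (-1.0 and -0.67, adjusted p 0.0589 and 0.121), and Lpin1 held in 15 of 15 alternatives. The receptor itself, Nr3c1, was at 198 and 196 against 118 and 192 (-0.39, adjusted p 0.405). Of 21 genes of the metal and redox response, 13 were tested and 0 passed (limma), with a median of 0.09. At an unadjusted p under 0.05 there were 3, against 37.0% of all genes. With edgeR 1 was higher and 2 lower, against 13.6% and 17.6% of all genes. With DESeq2 3 were higher and 2 lower, against 16.9% and 19.2%. The zinc sensor Mtf1, which acts on the metallothioneins, had 41 and 41 against 0 and 10, the latter 0 and 2 reads (-3.66, adjusted p 0.170, limma). With a pseudocount of 10 it was at -1.85, without isolated mitochondria replicate 1 at -1.93 and without replicate 2 at -5.39, and edgeR (adjusted p 0.0391) and DESeq2 (adjusted p 0.0364) called it lower.

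Finally, the replicates were compared with each other. In remaining tissue, 5 of the 10 genes had counting intervals above 1 for the ratio of replicate 2 to replicate 1, Foxo1 only just (1.18, interval 1.00 to 1.39). Ucp3 was 1.87 times higher (interval 1.67 to 2.09), Angptl4 2.75 times (1.79 to 4.46), Mt1 2.0 times (1.31 to 3.09) and Pdk4 1.3 times (1.24 to 1.37). Txnip was lower in replicate 2, with a ratio of 0.860 (0.825 to 0.896). In contrast, Fbxo32 (0.992, interval 0.963 to 1.02), Trim63 (1.02, 0.967 to 1.08) and Klf15 (1.06, 0.914 to 1.22) differed by no more than counting error. The intervals rest on estimated reads and cover counting error only, and a comparison of 1 library with 1 has no replicate check. The share of all genes with such an interval above 1 was not computed. The count of 5 of 10 therefore only describes these genes and does not set them apart from others. Of all 6862 nuclear genes tested between fractions, 4.39% differed at least 1.5 times in either direction and 1.85% were at least 1.5 times higher in replicate 2 of remaining tissue. Among the glucocorticoid-induced genes it was 6 of 19, beside 0 of 29 in the FoxO list, 1 of 23 in the fatty acid list and 0 of 13 in the metal and redox list. These were Per1 (33 and 103), Cebpb (61 and 120), Dusp1 (56 and 107), Errfi1 (29 and 51), Cebpd (19 and 32) and Gadd45g (33 and 51), named after their values were seen. Fkbp5 went the other way (50 and 32). Adipocyte markers were higher in replicate 2 as well, for instance Adipoq (6 and 29) and Cfd (38 and 146), and their part in the ratio of Angptl4, which fat cells also express, was not tested.

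**Figure D5:**
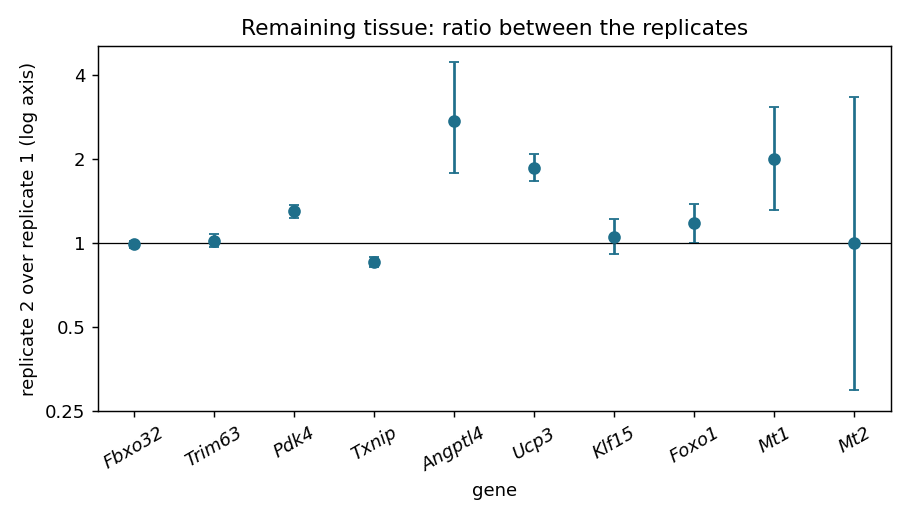
Ratio of remaining tissue replicate 2 to replicate 1 for each of the 10 genes on a log axis, with 95% exact binomial intervals of the estimated reads. Angptl4 (2.75), Mt1 (2.0), Ucp3 (1.87) and Pdk4 (1.3) lie above 1 and Txnip (0.860) below, whereas Fbxo32 and Trim63 lie on the line of equal levels.

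In isolated mitochondria the same ratio was above 1 for Txnip (2.37, interval 1.52 to 3.83), Pdk4 (2.16, 1.36 to 3.59) and Trim63 (2.37, 1.12 to 5.55). It was 1.2 for Fbxo32 (0.604 to 2.53), 5.11 for Ucp3 (0.697 to 221) and 1.69 for Foxo1 (0.508 to 7.14), and these intervals include 1. Of the nuclear genes, 62.5% differed at least 1.5 times in either direction and 36.1% were at least 1.5 times higher in replicate 2. Klf15 (0.417, interval 0.0614 to 2.48) also included 1, whereas Mt2, with 6 and 0 reads, was lower in replicate 2 (interval 0 to 0.475). Pdk4 was therefore higher in replicate 2 of both fractions, whereas Txnip was lower in replicate 2 of remaining tissue and higher in replicate 2 of isolated mitochondria.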

How the data were processed

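Per the labels, the authors used Trimmomatic 0.39, STAR 2.7.10a, featureCounts 2.0.2 and DESeq2 1.30.1 on mm10; the strand setting of the counting is not given in the sources used here. The methods describe digestion of outside RNA for heart mitochondria; whether muscle was treated likewise is not stated. The authors divided gene counts by a size factor and rounded them, and deposited this normalized signal. In isolated mitochondria 99.95% of 10508 and 99.97% of 11660 values under 2000 were whole multiples of 1 step within rounding (0.5), which recovered reads; in remaining tissue reads were estimated from a common factor. Exon lengths and overlaps came from GENCODE M21 on the same build (GRCm38), and BLAST searched shared sequence.

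Genes with a mean of at least 20 were fitted on log2(value + 1) with limma 3.58.1 in R 4.3.3, two-sided, without covariates, Benjamini-Hochberg over 6916 genes, threshold 0.05. Fold changes are on this scale and depend on the pseudocount for low genes. Alternatives were other filters, pseudocounts, scalings, a replicate block, edgeR 4.0.16, DESeq2 1.42.0 and leaving out each library. The fits were tested on simulated data. Genes named from lists were up to 4 per direction with the largest called change, plus set paralogues and regulators. The 10 genes and the lists were chosen with earlier results of these data known. The sequencing depth of remaining tissue is an estimate. The list counts include 1 gene whose own result is not reported here.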

Additional observations from a re-analysis of the deposited data

How the results depend on the processing

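Of the 10 genes, the number called lower was 1 and became 7 under a scaling to all genes, 3 with the replicate block, 2 with DESeq2, and 1 to 4 when 1 library was left out; 0 were called higher under every alternative run. Across all genes, 506 were called higher and 643 lower. The number higher was 283 at a mean of at least 5, 1107 when scaled to nuclear genes without copies, 38 when scaled to all genes, 939 with edgeR, 1106 with edgeR and TMM, 1170 with DESeq2, and 296 to 1724 with 1 library left out. The number lower was 3026 without a filter, 399 at a mean of at least 5, 183 when scaled to nuclear genes without copies, 6694 when scaled to all genes, 1144 with the replicate block, 374 for eBayes without trend, 1215 with edgeR, 1328 with DESeq2, and 176 to 3198 with 1 library left out. The scaling moved the median log2 fold change of all genes from -0.44 to 0.43 (nuclear genes without copies), -0.17 (upper quartile), -0.04 (TMM) and -6.90 (all genes). When scaled to nuclear genes without copies, Pdk4 was at 0.41, Txnip at 0.013 and Nr3c1 at 0.50. When scaled to all genes, the direction turned for Foxo1 (-6.41), Ctsl (-5.81), Fbxo21 (-5.06), Fkbp5 (-4.99), Foxo3 (-5.88), Gabarapl1 (-5.30) and Ucp2 (-4.01), which all lay above the median of -6.90. With 1 library left out, Pdk4 ranged from -1.03 to 0.076 and Foxo1 from -0.23 to 0.52. Trim63 passed the threshold in 5 of 15 alternatives, Klf15 in 3, Txnip and Ucp3 in 2 each and Pdk4 in 1.

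Over all alternatives, 0 to 6 genes of FoxO-dependent breakdown were called higher (3 in the report) and 1 to 29 lower (2). For fatty acid use the ranges were 0 to 4 (2) and 0 to 22 (2), for glucocorticoid-induced genes 0 to 2 (1) and 1 to 19 (3), and for the metal and redox response 0 to 6 (0) and 0 to 13 (0). The highest counts of lower genes came when scaled to all genes.

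The replicate numbers are shared by the groups, but no label says that they mark the same animal. The difference between replicates correlated at 0.14 between the fractions over 6916 genes. With the replicate block the adjusted p was 0.00675 for Trim63 (-1.43), 0.00666 for Ucp3 (-2.09) and 0.0716 for Txnip (-0.88), so that the block added Trim63 and Ucp3 to the calls among the 10 genes. The cause of these differences between settings was not tested. Read depth limits every statement on isolated mitochondria, where the tested nuclear genes had a median of 5 and 10 reads.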
